A study of Homo sapiens with 6 samples.

Results

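The SR protein and TRA2 genes taken here are SRSF1, SRSF3, SRSF4, SRSF5, SRSF6, SRSF7, SRSF10, SRSF11, TRA2A and TRA2B. All different intronic clusters whose gene field held 1 of these 10 genes and no other were used. They numbered 296 of 188027 clusters in the F125A list and 356 of 366429 in the WT list. Clusters assigned to several genes were not counted for these genes, so stretches described as empty lack only clusters assigned to 1 gene. A cluster is a short stretch of an intron on hg38 that was covered by sequenced RNA. The RNA came from nuclease-treated, purified complexes of FLAG-tagged Rbfox1 with LASR, an assembly of other splicing proteins, and had stayed protected by the bound proteins. The host was HEK293 Flp-In, a line derived from human embryonic kidney that accepts a transgene at 1 defined locus. All cells lacked Rbfox2 (KO#7, the one knockout line that the labels name), so every group shares that loss. The cells of 2 libraries carried Rbfox1 F125A, in which an RNA-contacting phenylalanine of the RNA recognition motif is alanine, those of 3 libraries carried wild-type Rbfox1 (WT), and those of 1 library carried no transgene. The comparison sets the intronic places recovered with F125A against those recovered with WT.

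Each Rbfox1 group had 1 deposited list for all its libraries. No value therefore has a replicate error and no test between the conditions was possible. Intervals are exact 95% intervals that cover counting error only and treat clusters as independent, although neighbouring clusters are not. The lists hold places without read counts, so read depth is unknown. The control library was not analysed here. The WT list was 1.95 times as long as the F125A list, and ratios are given relative to these totals. Of 4 genes typical of HEK293 cells, all had clusters in both lists, among them IRS4 with 74 F125A and 48 WT clusters. Of 14 genes typical of liver, blood, muscle, glia or fibroblasts, 11 had no cluster in either list, PTPRC and TTN had at most 1 in a list, and MBP had 21 in the F125A and 35 in the WT list.

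SR proteins bind RNA through an RNA recognition motif and contact other splicing factors through a domain rich in arginine and serine. They bind exonic enhancers and help the spliceosome choose splice sites. TRA2A and TRA2B are relatives with the same kinds of domain. Many of these genes hold highly conserved alternative exons, known as poison exons, whose inclusion leads to decay of the mRNA, and through them the proteins limit their own levels.

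SRSF11 encodes a serine- and arginine-rich protein that associates with the spliceosome, and it has RefSeq starts that lie far apart, against which its clusters can be set. The gene lies on chromosome 1 from 70205696 to 70253052 on the plus strand and has a second RefSeq start at 70221380, which is 15684 nt further downstream. None of its 61 F125A clusters and none of its 60 WT clusters lay upstream of that second start. The first F125A cluster began 848 nt after it and the first WT cluster 539 nt after it. Every cluster thus lay downstream of both starts. The 250 bases before each start are shown because the stretch between these 2 starts held no cluster. They come from RefSeq (GRCh38.p14), which holds such windows for 9 of the 10 genes, and capitals mark TATAAA or CCAAT on either strand, which do not overlap each other here.
SRSF11 upstream start, chr1:70205446-70205695, plus strand: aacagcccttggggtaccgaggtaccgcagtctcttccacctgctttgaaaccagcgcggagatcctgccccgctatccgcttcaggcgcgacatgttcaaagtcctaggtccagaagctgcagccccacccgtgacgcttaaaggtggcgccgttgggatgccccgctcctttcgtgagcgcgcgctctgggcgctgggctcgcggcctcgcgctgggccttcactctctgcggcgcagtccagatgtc
SRSF11 downstream start, chr1:70221130-70221379, plus strand: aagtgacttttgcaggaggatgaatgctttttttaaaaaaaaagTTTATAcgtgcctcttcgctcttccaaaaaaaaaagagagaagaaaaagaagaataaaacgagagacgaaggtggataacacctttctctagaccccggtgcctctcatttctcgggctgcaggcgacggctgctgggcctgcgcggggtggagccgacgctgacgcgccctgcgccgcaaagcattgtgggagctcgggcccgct
The window of the upstream start was 64.8% G and C and held neither motif. The window of the downstream start was 52.0% G and C and held TATAAA once, on the opposite strand. TATAAA occurred in 3763 (10.7%) and CCAAT in 11240 of all 35116 windows of this length, whose median share of G and C was 58.0%. These matches describe the letters only.

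Of SRSF1, SRSF3, SRSF4, SRSF5, SRSF6 and SRSF7, the genes of SR proteins proper, SRSF4 and SRSF6 had most clusters and SRSF1 fewest. SRSF4, on chromosome 1 (29147743 to 29181900, minus strand), had 42 F125A and 66 WT clusters. SRSF6, on chromosome 20 (43457896 to 43464243, plus strand), had 27 F125A and 25 WT clusters, so that the shorter F125A list held the greater number. Both encode proteins with a pair of RNA recognition motifs, as does SRSF5 on chromosome 14 (69767142 to 69772005, plus strand), which had 15 F125A and 16 WT clusters. SRSF3, which encodes the smallest SR protein, lies on chromosome 6 (36594362 to 36605600, plus strand) and had 15 F125A and 17 WT clusters. SRSF7 on chromosome 2 (38743599 to 38751494, minus strand), whose protein carries a zinc knuckle, had 12 F125A and 14 WT clusters. SRSF1, the founding SR protein gene on chromosome 17 (57989038 to 58007246, minus strand), had 5 clusters in each list, too few for a ratio.

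Among the other relatives, SRSF11, TRA2A and TRA2B each had over 100 clusters in both lists together, as SRSF4 had, and SRSF10 had 34. TRA2A, on chromosome 7 (23504780 to 23531981, minus strand), had 61 F125A and 71 WT clusters, and TRA2B, on chromosome 3 (185914558 to 185938014, minus strand), had 45 F125A and 61 WT clusters. Their products bind GA-rich exonic enhancers. SRSF11 had 61 F125A and 60 WT clusters. SRSF10, on chromosome 1 (23964347 to 23980327, minus strand), whose product acts as a splicing repressor when dephosphorylated, had 13 F125A and 21 WT clusters. SRSF6 and SRSF11 were thus the members with more F125A than WT clusters, SRSF1 had equal numbers, and the other 7 had fewer.

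**Figure D1:**
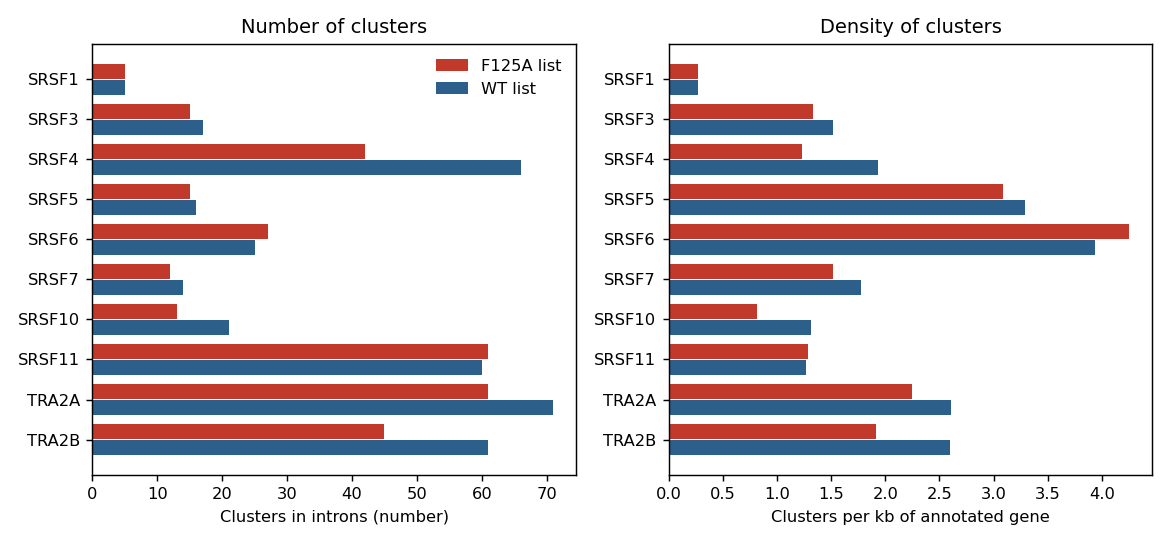
Intronic clusters of the 10 genes in the F125A list (red, upper bar) and the WT list (blue, lower bar), as numbers (left) and per kb of annotated gene (right). TRA2A, SRSF4, SRSF11 and TRA2B have most clusters by number, whereas SRSF6 and SRSF5 lead per kb, with 4.25 and 3.08 F125A clusters per kb.

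Per length, clusters were dense in most of these genes in both lists, and SRSF6 and SRSF5 were the densest. SRSF6 held 4.25 F125A clusters per kb of annotated gene (interval 2.80 to 6.19) and 3.94 WT clusters per kb (2.55 to 5.81). SRSF5 followed with 3.08 F125A (1.73 to 5.09) and 3.29 WT clusters per kb (1.88 to 5.34). TRA2A had 2.24 F125A and 2.61 WT clusters per kb and TRA2B 1.92 and 2.60 in the same order. SRSF3, SRSF4, SRSF7 and SRSF11 lay between 1.23 and 1.52 F125A clusters per kb and between 1.27 and 1.93 WT clusters per kb, and SRSF10 at 0.81 F125A and 1.31 WT clusters per kb. SRSF1 was lowest, with 0.27 clusters per kb in each list (0.089 to 0.64). Neighbours in this order had overlapping intervals, except SRSF11 and SRSF1 in the WT list, so the order of neighbours is within counting error elsewhere. Members further apart did separate: of the 45 pairs of genes, 21 in the F125A list and 17 in the WT list had intervals that did not overlap, such as SRSF6 (from 2.80) and TRA2B (to 2.57) in the F125A list.

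Set against genes of similar annotated length, 9 of the 10 lay above the 90th percentile of cluster density in both lists. The comparison used 20 classes of length with 589 or 590 genes each, all with at least 1 cluster, so genes with very few clusters count too. The lists give no transcript levels, so dense clusters cannot be told apart from an abundant transcript. SRSF6 stood at percentile 99.8 in the F125A list and 100 in the WT list, TRA2A at 99.7 in each, and TRA2B at 99.3 and 99.5. The lowest of the 9 was SRSF10, at 90.3 in the F125A and 93.9 in the WT list. SRSF1 stood at 56.4 in the F125A and 40.2 in the WT list. Of the SR protein genes outside these 10 that had clusters, SRSF2 had 1.52, SRSF9 0.37 and SRSF12 0.27 F125A clusters per kb. Annotated length takes in exons and alternative ends, and SRSF1 had all its clusters within the first 1549 nt of 18.2 kb. With the length of SRSF11 counted from its downstream start, 31.7 kb in place of 47.4 kb, its density was 1.93 F125A and 1.89 WT clusters per kb.

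Clusters in the short SR genes filled several blocks separated by stretches without any. In SRSF6 the clusters covered 32.9% of the annotated gene in the F125A list and 27.0% in the WT list, and in SRSF5 22.1% and 20.0% in the same order. The longest merged site of all 10 genes was in SRSF5, 437 nt from 69769969 to 69770405 on chromosome 14, where 5 F125A and 5 WT clusters joined. In SRSF3 the longest site held by both lists was 299 nt, with 2 clusters of each list. The lists hold intronic clusters only, so exons leave gaps by construction, and exon positions were not used here.

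**Figure D2:**
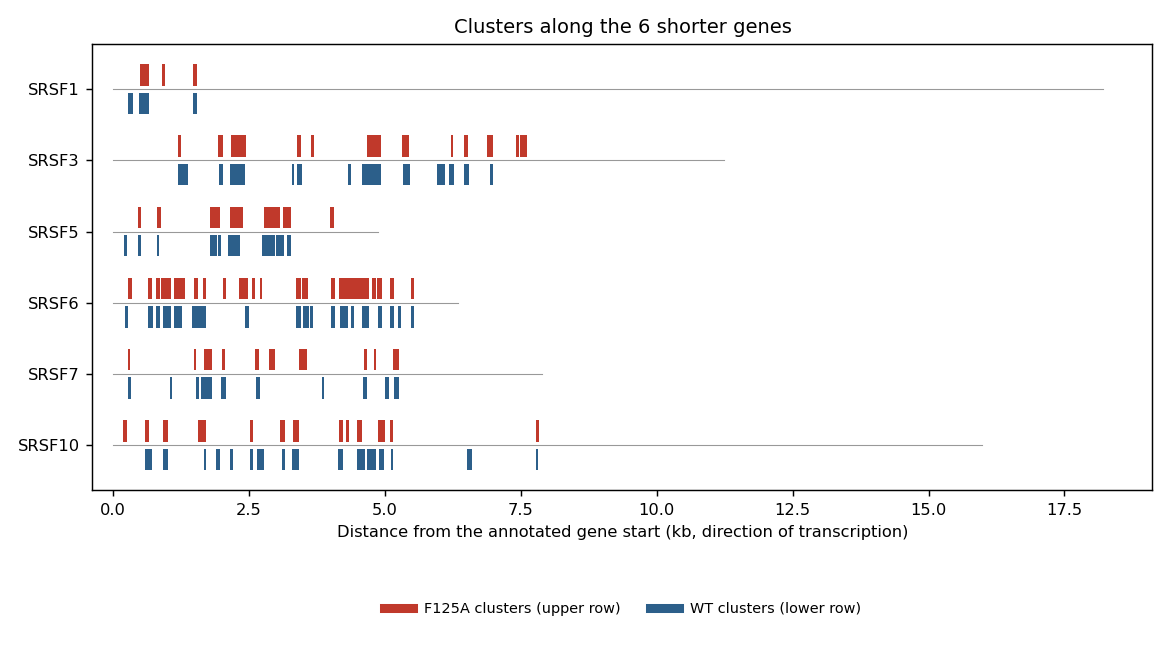
Clusters along SRSF1, SRSF3, SRSF5, SRSF6, SRSF7 and SRSF10 by distance from the annotated gene start in kb; the grey line is the annotated gene, with F125A clusters above it in red and WT clusters below it in blue. Most blocks recur in both lists, and SRSF1 and SRSF10 have no cluster beyond 1549 and 7824 nt in either list.

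In SRSF6 the lists differed in where clusters were densest. The densest 1 kb window of the F125A list held 9 clusters, centred between 4044 and 4898 nt from the annotated start, and 7 WT clusters lay in the same window. The densest WT window held 9 clusters, centred between 686 and 1682 nt, and 6 F125A clusters lay there. Each window was thus well filled in both lists, and the difference is of 2 or 3 clusters. In 8 of the 10 genes the densest windows of the lists overlapped, the exceptions being SRSF3 and SRSF6, and with windows of 500 nt they overlapped in 4 genes. Where windows were equally full, the one nearest the gene start was taken. In SRSF7 and TRA2A a later F125A window was equally full and did not overlap the densest WT window, so the count of 8 depends on this rule.

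Along the 4 longest genes the fullest parts lay at different distances from the start. In SRSF11 the part between 40 and 60% of the annotated length held 37 of its 61 F125A clusters, against 33 of its 60 WT clusters. Its densest 1 kb window, centred between 24213 and 25189 nt from the upstream start, held 10 F125A and 9 WT clusters. From 33425 nt onward SRSF11 had no cluster until 39176 nt in the F125A list and 39171 nt in the WT list. TRA2A was densest near its start, with 29 of 61 F125A and 28 of 71 WT clusters in the first 20% of its length. The first of its densest F125A windows, centred from 1368 to 2362 nt, held 9 F125A and 10 WT clusters. A later window, whose F125A clusters began from 4512 to 5431 nt, also held 9 F125A clusters. TRA2B had its densest F125A window at 8334 to 9142 nt, with 7 F125A and 9 WT clusters. In SRSF11, TRA2A and TRA2B the densest windows of the lists overlapped, in TRA2A for the earlier F125A window only.

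SRSF4 had fewer F125A than WT clusters toward its end, and fewer in all (42 against 66). Its longest stretch without an F125A cluster ran from 24220 to 30363 nt after its start, 6142 nt. Wholly within it lay 9 WT clusters. The stretch was picked for its lack of F125A clusters, so that lack is fixed by the choice, and the WT list is the longer one. The longest stretch without a WT cluster in SRSF4 was 2272 nt and held 1 F125A cluster. In TRA2A the longest stretch without an F125A cluster was 3428 nt and held 3 WT clusters. In the first 20% of SRSF4 there were 16 F125A and 15 WT clusters, and in the last 20% 2 F125A and 8 WT clusters. Over all 10 genes together the last 20% of the length held 7.43% of the F125A clusters, against 9.27% of the WT clusters. The first 20% held 28.0% of the F125A clusters, against 26.4% of the WT clusters.

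**Figure D3:**
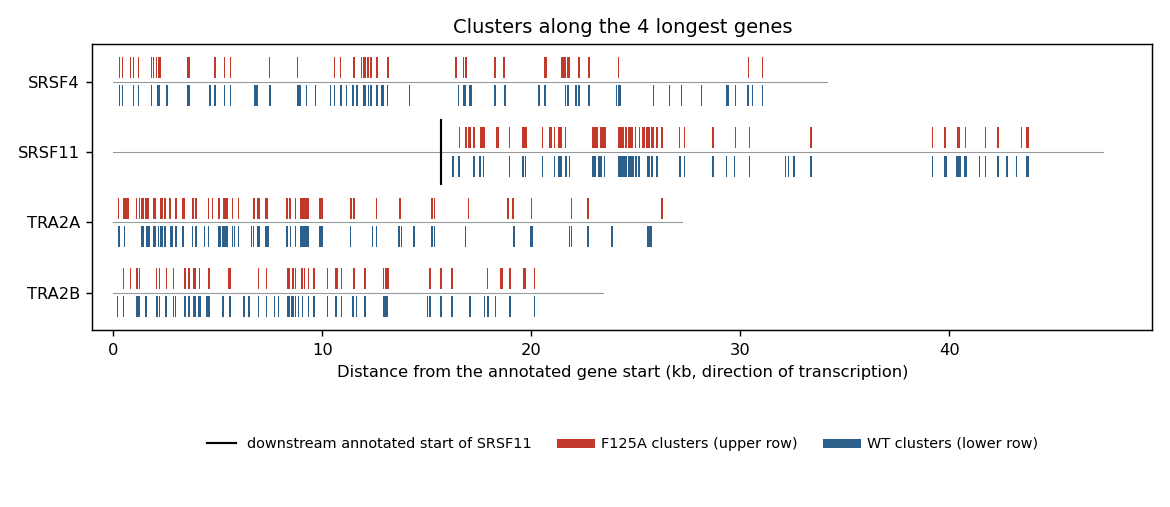
Clusters along SRSF4, SRSF11, TRA2A and TRA2B by distance from the annotated gene start in kb; the grey line is the annotated gene, with F125A clusters above it in red and WT clusters below it in blue, and the black line marks the downstream annotated start of SRSF11 at 15684 nt. No cluster of SRSF11 lies upstream of that line. The longest stretch of SRSF4 without an F125A cluster, from 24220 to 30363 nt, holds 9 WT clusters.

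Relative to the list totals, all 9 genes with at least 20 clusters leaned to F125A. The measure is the log2 ratio of F125A to WT clusters, with 1 added to each, centred by subtracting that of the totals (-0.96), so that 0 stands for the ratio of the whole lists. Over all 5626 genes with at least 20 clusters, 53.5% lay above 0, and the median was 0.04. The median of the 9 genes was 0.76, and the clusters of all 10 genes summed, 296 F125A and 356 WT, gave a log2 ratio of 0.70 (interval 0.47 to 0.92). Summed alike, other genes of the same range of length gave 0.32. The 589 of them within the range of F125A density of the 9 genes gave 0.65 (0.61 to 0.68), against 0.69 for the 9. This density comparison was chosen after seeing the data, and selecting by F125A density itself favours F125A clusters. SRSF6 was highest at 1.07 (0.23 to 1.92) and was the 1 gene of the 9 past 2-fold, against 1.99% of all tested genes past 2-fold toward F125A. With clusters closer than 50 nt merged, SRSF6 lay at 0.92 and none was past 2-fold. SRSF11 lay at 0.99 (0.45 to 1.53) and TRA2A at 0.75 (0.23 to 1.26), and these 3 were the genes whose intervals lay above 0.

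The other 6 ratios had intervals that included 0. SRSF5 lay at 0.88 (-0.25 to 1.98), SRSF3 at 0.79 (-0.32 to 1.87) and SRSF7 at 0.76 (-0.50 to 1.96). TRA2B lay at 0.53 (-0.07 to 1.10), SRSF4 at 0.32 (-0.28 to 0.89) and SRSF10 at 0.31 (-0.85 to 1.34). No pair among the 9 genes had separate intervals.

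**Figure D4:**
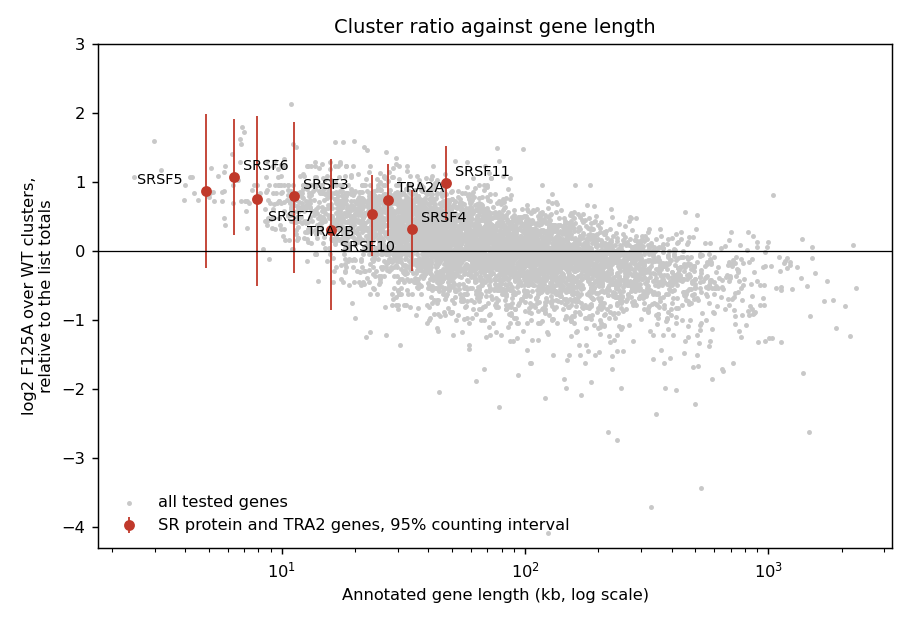
Log2 ratio of F125A to WT clusters, relative to the list totals, against annotated gene length in kb on a log scale; grey points are all 5626 genes with at least 20 clusters and red points the 9 SR protein and TRA2 genes tested, with exact 95% counting intervals as bars. All 9 lie above 0, among short genes whose ratios are mostly above 0 too, and SRSF11 lies at the upper edge for its length.

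Shorter genes as a class leaned to F125A, and relative to genes of similar length most of the 9 lay near 0. After the median of genes in the same of 20 classes of length was subtracted, the median of the 9 was 0.10, with 8 genes above 0 and SRSF10 below it at -0.17, beside 49.4% above 0 of all tested genes. The sign of SRSF10 turned with clusters closer than 50 nt merged (0.07), that of SRSF4 with 5 added in place of 1 (-0.04) and that of SRSF7 with a minimum of 10 clusters (-0.01), so the side of 0 is not settled for these 3 genes. SRSF3 (0.07), SRSF4 (0.04), SRSF7 (0.03), TRA2B (0.10) and SRSF5 (0.15) lay near 0, and SRSF6 at 0.35 and TRA2A at 0.31. SRSF11 was highest at 0.86, at percentile 98.2 of the 281 genes in its class. With its length counted from the downstream start, SRSF11 lay at 0.64 and again at percentile 98.2 of the 281 genes nearest in length. None of the 9 was past 2-fold on this scale, on which 0.462% of all tested genes were past 2-fold toward F125A and 2.1% toward WT.

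Most places found in these genes with F125A were also found with WT, and most WT places also with F125A. Of the 296 F125A clusters, 249 shared 1 nt or more with a WT cluster of the same strand, 84.1% (interval 79.5 to 88.1%), against 85.5% over the whole F125A list. Of the 356 WT clusters, 254 overlapped an F125A cluster, 71.3% (66.3 to 76.0%), against 45.2% over the whole WT list and 52.9% in other genes of the same range of length. Genes of the same range of length and of F125A density, 589 of them, a comparison chosen after seeing the data, had 83.0% of F125A and 68.6% of WT clusters overlapping. The 9 genes other than SRSF1, whose range defined that comparison, had 84.2% and 71.2% in the same order, with an interval of 66.2 to 75.9% for the WT share. Selecting genes by F125A density itself favours WT clusters with an F125A partner, so the closeness of these shares is partly built into that comparison.

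The share of F125A clusters with a WT partner ranged from SRSF6 to SRSF5. In SRSF6 18 of 27 F125A clusters overlapped a WT cluster, 66.7% (46.0 to 83.5%), the lowest of the 10 shares. That interval lay below the 85.5% of the whole list but included the 80.7% of other genes of the same range of length. It is not adjusted for picking the lowest of 10 shares. In SRSF5 14 of 15 F125A clusters overlapped a WT cluster (93.3%, 68.1 to 99.8%), in TRA2B 41 of 45 (91.1%) and in TRA2A 54 of 61 (88.5%). The WT share was lowest in SRSF4, where 36 of 66 WT clusters overlapped an F125A cluster (54.5%, 41.8 to 66.9%), and highest in SRSF6 with 22 of 25 (88.0%, 68.8 to 97.5%). SRSF4 and SRSF6 thus lay at opposite ends of the 10 genes in the WT share. The interval of SRSF4 included the 45.2% of the whole WT list and the 52.9% of other genes of the same range of length. That of SRSF6 lay above both. These intervals are not adjusted for picking the lowest and highest of 10 shares either.

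To count each place once, overlapping clusters of both lists were merged, which gave 354 sites in the 10 genes. Of these, 47 (13.3%) held F125A clusters only, 102 (28.8%) WT clusters only and 205 (57.9%) both. Over all genes with a known place, 7.21% of 377417 sites were F125A only, 53.2% WT only and 39.6% held both. SRSF6 was the 1 gene of the 10 with more F125A-only than WT-only sites, 9 against 3 of its 28. SRSF11 had 12 F125A-only and 13 WT-only sites of 59. SRSF4 had 5 F125A-only and 30 WT-only sites of 69, and TRA2B 4 and 19 of 62 in the same order. Their WT-only shares, 43.5% and 30.6%, were below the 53.2% of all genes, and the WT list is the longer one. Site shares were not set against genes of similar length. Such genes differ from the whole list in the share of WT clusters with an F125A partner, 52.9% against 45.2%. With clusters within 50 nt merged as well, 26 sites in the 10 genes were F125A only and 62 WT only. Several F125A-only sites of SRSF6 adjoined or lay within 50 nt of sites with WT clusters, so its 9 against 3 depends on the merging rule.

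The F125A-only sites of SRSF6 were short and lay in several parts of the gene. The longest, 104 nt, ran from 43460217 to 43460320 on chromosome 20, and the shortest, 29 nt, from 43460599 to 43460627. Just after the longest, a site held by both lists began at 43460322. An adjoining pair, from 43462325 to 43462365 and from 43462366 to 43462451, lay in the densest F125A window. The pair had no gap to the sites held by both lists on either side, which ended at 43462324 and began at 43462452. In SRSF11 the longest F125A-only site was 132 nt (70222697 to 70222828 on chromosome 1), the third of 3 such sites in a row that began at 70222547. The longest WT-only site of the 10 genes was 233 nt, in TRA2A on chromosome 7 from 23506195 to 23506427. Sites held by both lists were longer (median 89 nt) than F125A-only (70 nt) or WT-only sites (56 nt), and merging by itself lengthens sites held by both lists.

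**Figure D5:**
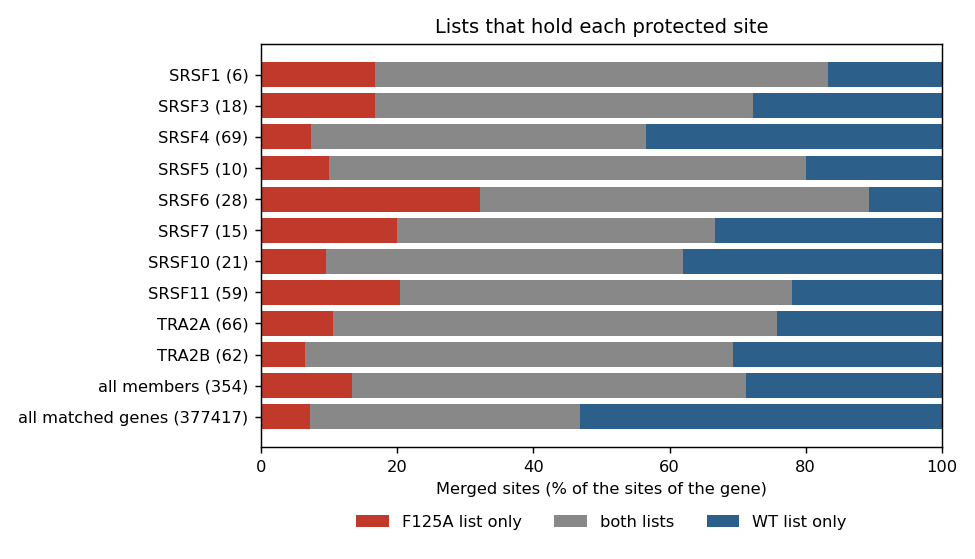
Share of merged sites of each gene that held F125A clusters only (red), clusters of both lists (grey) or WT clusters only (blue), with the number of sites in parentheses; the lower rows give the 10 genes together and all genes with a known place. Of the 10 genes, SRSF6 has the largest F125A-only share (9 of 28 sites) and SRSF4 the largest WT-only share (30 of 69).

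Clusters in these genes were slightly longer than in the lists as a whole, and their ends often differed between the lists. F125A clusters had a median length of 67 nt (quartiles 51 and 87 nt) and WT clusters of 64 nt (48 and 83 nt), against 64 and 60 nt over the whole lists in the same order. The shortest F125A cluster was 26 nt and the longest 209 nt, and the WT clusters ranged from 27 to 233 nt. Of the 249 F125A clusters with a WT partner, 36 (14.5%) began at the very base at which a WT cluster began, 123 (49.4%) within 5 nt of one, and 132 (53.0%) ended within 5 nt of the end of one. The shares over the whole F125A list were 15.9%, 57.2% and 58.8%. Both ends were identical in 6 pairs, 2 in SRSF4, 2 in SRSF11 and 1 each in TRA2A and TRA2B, such as the 39 nt from 70226204 to 70226242 in SRSF11. Clusters that adjoined the next cluster of the same list without a gap numbered 52 in the F125A and 63 in the WT list.

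Near the gene start the shares of clusters were close to those in other genes of this size. Within 1 kb of the annotated start lay 24 of the 296 F125A clusters, 8.11% (5.26 to 11.8%), and 22 of the 356 WT clusters, 6.18% (3.91 to 9.21%). Other genes of 4.86 to 47.4 kb had 8.22% of F125A and 6.06% of WT clusters there. SRSF3 and SRSF11 had no cluster in the first kb in either list. SRSF1 had 4 of its 5 clusters there in each list.

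Other genes of the same pathway, taken from a list of 38 SR proteins, SR-related proteins, kinases and an import receptor, also mostly lay above 0. Of the 38, 29 had at least 20 clusters, 27 lay above 0 and 2 below, beside 53.5% above 0 of all tested genes, with a median of 0.52. After the same correction for length 21 lay above and 7 below 0, beside 49.4% above 0 of all tested genes, and the median was 0.29. SCAF4, an SR-related protein that binds RNA polymerase II, was the 1 gene past 2-fold, with 79 F125A and 74 WT clusters (1.06, interval 0.58 to 1.53), and none lay past 2-fold toward WT, against 1.99% and 2.51% of all tested genes in these directions. SRPK2, a kinase of SR proteins, had most clusters, 257 F125A and 432 WT (0.22, -0.02 to 0.44). DYRK1A, a kinase found in nuclear speckles, had 170 F125A and 291 WT clusters (0.19), SCAF8, a relative of SCAF4, 128 and 210 (0.25), and RSRC1, an arginine- and serine-rich splicing factor, 109 and 250 (-0.23), in the same order. None of the SR proteins SRSF2, SRSF8, SRSF9 and SRSF12 reached 20 clusters: SRSF2 had 5 F125A and 6 WT clusters, SRSF9 3 and 5, and SRSF12 6 and 8. SRSF8 had no cluster in either list.

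Among the 1914 tested genes within the same range of length that are neither among these genes nor on the pathway list, RPS9, YBX3 and PNISR were nearest to the medians of the 9 genes in log2 ratio and density. The distance was taken over the log2 ratio and the log2 density of both lists summed, each in SD units. RPS9, a ribosomal protein gene, had 10 F125A and 12 WT clusters (0.72), YBX3, a cold-shock domain protein gene, 39 and 44 (0.79), and PNISR, which encodes a protein rich in serine and arginine, 39 and 45 (0.76).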

How the data were processed

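Nuclease-protected RNA of purified FLAG-Rbfox1 complexes was sequenced. Per the labels' protocols, primers carried molecular identifiers and inserts of 20 to 80 nt were selected. The submitters' processing notes name cutadapt, STAR and hg38. Not given in the sources used here were versions, how clusters were called, whether the control was subtracted and how libraries were pooled. The deposited lists give, per the file headers, chromosome, start, end, gene, region and strand. They hold no other value, so the unit is nt (other), and no per-sample column exists. The 0-based starts are printed 1-based.

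Repeated rows were dropped (13 F125A and 11 WT rows of the 10 genes). The 5433 consecutive rows that the lists have in common held none of these genes. Gene names were matched to RefSeq's GRCh38.p14 table by symbol (11720), a unique synonym (79) or not at all (6). All clusters of the 10 genes lay within their gene's bounds. Overlap was taken on the same strand. Shares carry Clopper-Pearson and densities exact Poisson intervals, and the interval of a ratio comes from that of the F125A share without the added 1. Python 3.11.15, pandas 2.3.3, NumPy 2.4.6 and SciPy 1.17.1 were used, and the ratio and overlap steps were tested on simulated data. Named were all 10 genes, the 4 genes of the pathway list with most clusters and any past 2-fold, and the 3 nearest genes; the other SR proteins and PTPRC, TTN, MBP and IRS4 were named after their values were seen. The genes and lists were chosen with earlier results of these data known. Alternatives covered the added number, the minimum, merging, repeats, centring, length classes, the overlap rule and window size.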

Additional observations from a re-analysis of the deposited data

How the results depend on the processing

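Of 196 recomputed values, 188 lay within their counting interval or within 1.5 times the reported count. The intervals of single genes were wide, so this count is a weak check. With clusters closer than 50 nt merged, the log2 ratio of SRSF10 went from 0.31 to 0.73, inside its interval of -0.85 to 1.34. Among the 188, 3 values near 0 changed sign, all relative to genes of similar length: SRSF10 moved to 0.07 with clusters closer than 50 nt merged, SRSF4 to -0.04 with 5 added and SRSF7 to -0.01 with a minimum of 10 clusters. With 5 added, 7 of 9 genes lay above 0 on that scale. The other exceptions follow, and the cause was not tested beyond the construction of each alternative. With clusters closer than 50 nt merged, the number of genes past 2-fold toward F125A was 0, because SRSF6 moved to 0.92, the 7 genes still tested all lay above 0, and 206 F125A and 243 WT clusters were left. With clusters within 50 nt merged across lists, F125A-only sites numbered 26 and WT-only sites 62. With clusters within 50 nt counted as shared, the shares were 89.2% of F125A and 78.9% of WT clusters. Ranked by covered nt per kb, 5 of 10 genes kept their WT rank. With windows of 500 nt, the densest windows overlapped in 4 genes. With 5 added in place of 1, the median of all tested genes was 0.16, a shift of over 0.1 from 0.04, and the median of the 9 genes was 0.80. The summed ratio of the 10 genes ranged from 0.66 to 0.71 over all alternatives run on it. SRSF11 relative to genes of similar length ranged from 0.60 to 0.94. No paired analysis was possible because each group had 1 list for all its libraries, and for the same reason no library could be left out.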
